A study of Mus musculus with 8 samples.

Results

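The chemokine receptor gene Ccr9 and 6 further receptor genes, Cxcr4, Ccr7, Ccr4, Ccr8, Cxcr5 and Cxcr6, were examined in cultured mouse thymocytes at the DN3 stage, a step of early T cell development. Members were all probe sets whose symbol in the array's annotation was one of these 7 names, which gave 12 probe sets of 45101 on the array and 7 genes of the 18193 tested. They were selected on measured values of these same arrays, so their levels and differences are given as a description with no test. Expression was measured on 8 Affymetrix arrays in 4 groups of 2: IkL/L GSI, IkL/L DMSO, WT GSI and WT DMSO. IkL/L mice carry a hypomorphic allele of Ikzf1, the gene of the transcription factor Ikaros, and the series calls their cells Ikaros deficient, while WT mice are wild type. GSI is the gamma-secretase inhibitor MRK-003, given for 16 h at 5 mM as labelled (a dose that could not be checked), and DMSO is its vehicle. All 4 groups were lineage-depleted thymocytes grown on OP9 DL1 stroma, a mouse line made to display the Notch ligand DL1, and then sorted for CD25 and against lineage markers and CD44. The labels give neither the animals' age nor whether replicates came from separate animals, so the spread between replicates may be technical.

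Chemokine receptors are G protein-coupled receptors that steer migrating cells along gradients of small secreted proteins. CCR9 binds CCL25, which thymic and small intestinal epithelium secrete, and in mice it is carried by immature thymocytes and by T cells that home to the gut. CXCR4 binds CXCL12 and holds early thymocytes in the cortex, whereas CCR7, CCR4 and CCR8 are known mainly from later thymocytes and mature T cells. CXCR5 guides B cells and follicular helper T cells, and CXCR6 marks natural killer T cells and effector T cells. Gamma-secretase releases the intracellular part of Notch receptors, so its inhibitor blocks Notch signals, on which DN3 cells depend.

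Promoter windows of 300 bases, from 250 before to 50 after the transcript start, were taken from RefSeq (build GRCm38.p6), which held 5 of the 7 members, Ccr7 and Cxcr5 being the others. They are shown for Ccr9, which had the widest range of levels among the members. They are also shown for Lztfl1 and Fyco1, the genes next to Ccr9 on either side, and for Cxcr4, the other member above the array median on all arrays. Capitals mark any match, on either strand, to TGGGAA (a core shared by RBPJ and Ikaros sites), CAGCTG or CAGGTG (E boxes) or GTAAACA (a FOXO site). Ccr9 lies at chr9:123766961-123767260 (plus strand), Lztfl1 at chr9:123717576-123717875 (minus strand), Fyco1 at chr9:123851850-123852149 (minus strand) and Cxcr4 at chr1:128592250-128592549 (minus strand). All are written 5′ to 3′ along the gene.
Ccr9: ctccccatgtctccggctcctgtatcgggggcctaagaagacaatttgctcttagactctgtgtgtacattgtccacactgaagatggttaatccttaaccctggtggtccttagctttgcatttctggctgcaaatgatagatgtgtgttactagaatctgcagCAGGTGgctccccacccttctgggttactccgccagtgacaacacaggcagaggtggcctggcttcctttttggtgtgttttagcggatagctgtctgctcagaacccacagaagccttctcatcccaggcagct
Lztfl1: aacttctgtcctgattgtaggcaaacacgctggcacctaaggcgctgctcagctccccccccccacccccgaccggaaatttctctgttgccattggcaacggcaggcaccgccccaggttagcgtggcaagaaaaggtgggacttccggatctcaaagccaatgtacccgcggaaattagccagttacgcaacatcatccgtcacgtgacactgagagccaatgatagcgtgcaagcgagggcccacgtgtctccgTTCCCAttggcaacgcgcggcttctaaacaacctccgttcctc
Fyco1: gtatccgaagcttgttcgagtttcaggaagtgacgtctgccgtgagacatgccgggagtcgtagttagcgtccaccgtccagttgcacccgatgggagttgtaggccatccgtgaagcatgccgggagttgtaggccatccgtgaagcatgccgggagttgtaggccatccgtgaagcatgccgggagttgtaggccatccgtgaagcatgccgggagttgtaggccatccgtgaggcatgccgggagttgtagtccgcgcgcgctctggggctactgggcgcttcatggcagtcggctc
Cxcr4: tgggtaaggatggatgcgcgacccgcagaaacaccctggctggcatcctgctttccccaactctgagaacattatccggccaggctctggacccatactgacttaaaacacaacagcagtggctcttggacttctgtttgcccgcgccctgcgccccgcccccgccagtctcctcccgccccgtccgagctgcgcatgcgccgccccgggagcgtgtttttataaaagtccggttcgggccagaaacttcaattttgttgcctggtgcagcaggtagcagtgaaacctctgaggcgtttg

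The Ccr9 window held 1 match, a CAGGTG that begins 85 bases before the start. CAGGTG or its reverse complement occurs in 20.2% of all 32851 promoter windows of this length, so a single match is common. Of the other members in the table, Ccr4 held 1 CAGGTG that begins 223 bases before its start, and Ccr8, Cxcr6 and Cxcr4 held none of the 4 motifs. The Lztfl1 window held 1 TGGGAA, a motif found in 25.6% of windows, and Fyco1 held none. CAGCTG and GTAAACA, found in 16.3% and 3.65% of windows, were not matched in these windows. The Ccr9 window had a G and C content of 51.3% with 4 CpG dinucleotides. Lztfl1 had 57.7% and 21, Fyco1 60.7% and 25, and Cxcr4 59.3% and 20. Binding at these sites was not measured in these samples.

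The arrays were checked against treatment, genotype and sort. Dtx1, a Notch target that encodes the ubiquitin ligase Deltex, fell by 4.55 ± 0.20 on the log2 scale with GSI in IkL/L cells and by 4.20 ± 0.20 in WT cells (SE; limma, adjusted p = 9.48e-05 and 0.000356). Under DMSO, Ikzf1 differed by -0.90 ± 0.14 between IkL/L and WT cells (limma, adjusted p = 0.0222), but leaving out any of the 4 DMSO arrays ended this call (highest adjusted p = 0.207). All 12 measured DN3 markers of 14 listed were above the array median on all 8 arrays. The sort marker gene Il2ra (CD25) had log2 levels of 9.49 and 9.42 in IkL/L GSI, 11.69 and 11.57 in IkL/L DMSO, 9.73 and 9.47 in WT GSI and 12.03 and 11.90 in WT DMSO. Ptcra, which encodes the pre-T cell receptor alpha chain, fell with GSI by 2.33 ± 0.15 in IkL/L and by 1.64 ± 0.15 in WT cells, and under GSI it differed by -1.06 ± 0.15 between IkL/L and WT cells (limma, adjusted p = 0.000443, 0.0049 and 0.015). The recombinase genes Rag1 (0.88 ± 0.20) and Rag2 (0.73 ± 0.19) rose with GSI in IkL/L cells, Rag2 being named after its value was seen. The Ptcra call in WT cells was lost without the first WT DMSO array (highest adjusted p = 0.0618), its genotype call without any 1 of the 4 IkL/L arrays (0.117), and the Rag1 call without the first IkL/L GSI or either IkL/L DMSO array (0.147). Replicates correlated across genes with r between 0.985 and 0.995, and the WT GSI pair was the furthest apart, with 830 genes over 2-fold apart against 146 in IkL/L GSI. Array medians lay between 5.25 and 5.33.

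Ccr9, at chromosome 9, 123767211 to 123783457 in GRCm38.p6, was the member that varied. On the probe set with the highest mean, 1427419_x_at, its log2 level was 13.03 and 12.93 in IkL/L GSI, 9.49 and 9.44 in IkL/L DMSO, 12.94 and 13.20 in WT GSI and 11.52 and 11.63 in WT DMSO. Both GSI groups were high and overlapped each other, WT DMSO was lower, and IkL/L DMSO was the lowest group, with no overlap between any other pair of groups. The spread between replicates was 0.25 or less in each group, and the levels spanned 3.76 over the 8 arrays.

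With GSI, Ccr9 was higher by a log2 difference of 3.52 ± 0.13 in IkL/L cells (moderated SE of the limma fit; 95% interval 3.23 to 3.81), an 11.4-fold difference. In WT cells it was higher by 1.50 ± 0.13 (1.21 to 1.79), which is 2.82-fold. Under DMSO, IkL/L cells had less of it than WT cells, by a log2 difference of -2.11 ± 0.13 (-2.40 to -1.82; 4.32-fold). Under GSI the difference between IkL/L and WT was -0.09 ± 0.13, and on 1427419_x_at its interval of -0.38 to 0.20 bounds it on both sides. The GSI response in IkL/L cells thus exceeded that in WT cells by 2.02 ± 0.18 (1.61 to 2.43). This is the same quantity as the genotype difference under GSI minus that under DMSO, since the 4 comparisons share groups. Ranked from the highest of the 18193 genes, Ccr9 stood at 4 for the response in IkL/L cells and at 43 for the response in WT cells. Ranked from the lowest, it stood at 35 for the genotype difference under DMSO.

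**Figure D1:**
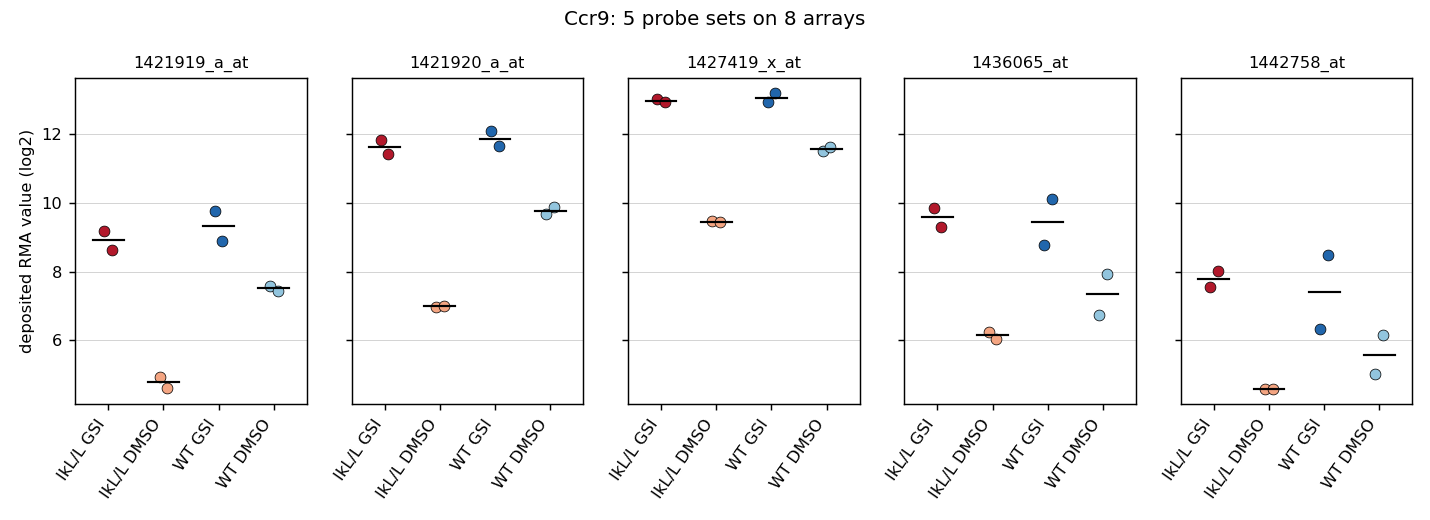
Deposited RMA values (log2, vertical axis) of the 5 Ccr9 probe sets by group, with a point for each of the 2 arrays of a group and a line at their mean. On every probe set both GSI groups lie above WT DMSO and IkL/L DMSO, and IkL/L DMSO is the lowest group.

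On the other 4 probe sets of Ccr9, too, both GSI groups stood above WT DMSO, and WT DMSO above IkL/L DMSO. 1421920_a_at had log2 levels of 11.83 and 11.43 in IkL/L GSI, 6.97 and 7.0 in IkL/L DMSO, 12.11 and 11.65 in WT GSI and 9.68 and 9.87 in WT DMSO. 1421919_a_at had 9.17 and 8.64 in IkL/L GSI, 4.94 and 4.61 in IkL/L DMSO, 9.76 and 8.90 in WT GSI and 7.58 and 7.43 in WT DMSO. On both, the WT DMSO arrays lay between the GSI arrays and the IkL/L DMSO arrays, as on the first probe set. The remaining probe sets were noisier in WT cells. 1436065_at had 9.85 and 9.31 in IkL/L GSI, 6.25 and 6.03 in IkL/L DMSO, 8.77 and 10.11 in WT GSI and 6.74 and 7.94 in WT DMSO. 1442758_at had 7.56 and 8.03 in IkL/L GSI, 4.57 and 4.59 in IkL/L DMSO, 6.32 and 8.49 in WT GSI and 5.02 and 6.15 in WT DMSO. WT replicates of these probe sets differed by between 1.13 and 2.17, more than the 0.54 or less between IkL/L replicates.

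Across the 5 probe sets the GSI difference ran from 3.22 to 4.64 on the log2 scale in IkL/L cells (9.30- to 25.0-fold) and from 1.50 to 2.10 in WT cells (2.82- to 4.30-fold). The genotype difference under DMSO ran from -2.79 to -1.01 (2.01- to 6.91-fold lower in IkL/L). For these 3 comparisons the groups did not overlap on 5 of 5 probe sets, which with 2 arrays a group is common. Of the 34945 probe sets that name 1 gene, 61.3% did not overlap for GSI in IkL/L cells, 41.9% for GSI in WT cells and 37.7% between genotypes under DMSO, and nothing is read from the count. The genotype difference under GSI ran from -0.43 to 0.39, and the groups overlapped on all 5, where 36.1% of probe sets did not. Its 95% interval was wider on the other probe sets than on 1427419_x_at. It was -0.74 to 0.24 on 1421920_a_at, -1.17 to 0.32 on 1421919_a_at, -1.04 to 1.32 on 1436065_at and -1.12 to 1.90 on 1442758_at. The difference of the responses ran from 1.34 to 2.54, with a 95% interval that included 0 on 1436065_at (-0.33 to 3.0) and 1442758_at (-0.74 to 3.53). Pairs of these probe sets correlated over the 8 arrays with r between 0.78 and 0.99 (median of 10 pairs, 0.93). They measure the same RNA on the same arrays and are not replicates. The suffix _x_at marks probes that may also bind other transcripts; without such probe sets Ccr9 rests on 1421920_a_at, whose differences were 4.64 ± 0.21 in IkL/L cells and 2.10 ± 0.21 in WT cells.

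Values of RNA quality differed between GSI and DMSO in both genotypes, and values of other cell types moved along with Ccr9 on some arrays. The difference between the 3′ and 5′ control probe sets of GAPDH, which widens as the 5′ end of the transcripts is lost, was 3.09 and 3.03 in IkL/L GSI, 1.87 and 2.47 in IkL/L DMSO, 2.20 and 3.08 in WT GSI and 1.71 and 2.12 in WT DMSO. The same difference for ACTB was 1.69 and 2.00 in IkL/L GSI and 1.21 and 1.24 in IkL/L DMSO. In WT cells it was 1.43 and 2.07 with GSI and 1.02 and 1.25 with DMSO. With the GAPDH value as a covariate, Ccr9 was higher with GSI by 3.35 ± 0.16 in IkL/L cells and by 1.36 ± 0.14 in WT cells. Both control values were larger with GSI in each genotype, so RNA quality and treatment cannot be told apart by this fit. ACTB was not used as a covariate. The 12 OP9 stroma markers averaged 8.23 and 7.75 in IkL/L GSI, 8.23 and 7.45 in IkL/L DMSO, 8.31 and 6.90 in WT GSI and 7.71 and 7.13 in WT DMSO. Their mean was higher on the first array of every group. Pdgfrb alone was lower there in every group, and Thy1, Dcn and Lum were lower there in some groups. Thy1, which thymocytes also express, stood between 12.53 and 12.89 on the arrays and counts in this mean, so the mean is not of stroma alone. None of the 12 was called with GSI, Vcam1 being at 0.68 ± 0.57 in IkL/L and 0.06 ± 0.57 in WT cells. Pdgfrb was higher in IkL/L than in WT under DMSO (1.22 ± 0.20; limma, adjusted p = 0.0236), a call lost without any 1 of 5 arrays (0.223). With the stromal level, Thy1 included, as a covariate the Ccr9 differences were 3.53 ± 0.12 and 1.52 ± 0.12.

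Markers of double-positive and later thymocytes, in which CCR9 is also abundant in mice, averaged 7.84 and 6.93 in IkL/L GSI, 7.43 and 7.44 in IkL/L DMSO, 6.98 and 6.77 in WT GSI and 7.10 and 6.93 in WT DMSO over 9 of 12 listed genes, Ccr7 included. Cd8a stood at 8.43 on the first IkL/L GSI array and between 6.02 and 6.55 on the other 7. In IkL/L cells with GSI, Cd4 (1.22 ± 0.25) and Themis (0.66 ± 0.14) rose, and Cd2 (-2.73 ± 0.56) and Cd5 (-1.58 ± 0.38) fell (limma, adjusted p between 0.0128 and 0.0246). Of all genes, 7.70% rose and 9.09% fell in that comparison. Themis also rose in WT cells (0.72 ± 0.14; limma, adjusted p = 0.0255), where 2.31% of all genes rose. Without the first IkL/L DMSO array, none of these 4 genes was called in IkL/L cells (highest adjusted p over the fits without 1 array, 0.112, 0.124, 0.097 and 0.129), and Themis in WT cells was lost without any 1 of 5 arrays (0.142). On 1 of its 3 other probe sets Themis had the opposite sign in IkL/L cells (-0.16).

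Myeloid and dendritic markers averaged 5.44 and 5.44 in IkL/L GSI, 4.93 and 4.93 in IkL/L DMSO, 5.25 and 5.08 in WT GSI and 4.91 and 4.75 in WT DMSO. Of these 14, 4 rose with GSI in IkL/L cells, where 7.70% of all genes rose (2.31% in WT cells). They were Lyz2, S100a9, Irf8 and S100a8, with log2 differences of 1.19 to 2.50 (limma, adjusted p between 0.00116 and 0.0037). These calls were kept without each array in turn. S100a8 alone rose in WT cells (1.47 ± 0.26; limma, adjusted p = 0.0192), a call lost without either WT DMSO array or the second WT GSI array (highest 0.077). Under GSI, Lyz2, S100a8 and S100a9 were higher in IkL/L than in WT cells, by 1.61, 1.41 and 1.08, where 0.945% of all genes were higher. These calls were lost without the first IkL/L GSI array and without the second WT GSI array. Siglech, which defines plasmacytoid dendritic cells, a type that carries CCR9 in mice, stayed below the array median on all 8 arrays (4.11 to 4.56), as did 6 others of the 14. Of 8 B cell markers, Vpreb1 (2.16 ± 0.25), Cd79b (1.57 ± 0.30) and Igll1 (0.65 ± 0.17) rose in IkL/L cells and Vpreb1 (1.43 ± 0.25) in WT cells. The Vpreb1 call in IkL/L cells was kept without each array in turn, and the other 3 were lost without the second DMSO array of the genotype compared (highest adjusted p = 0.0879, 0.177 and 0.105). The defining markers Cd79a, Ms4a1 and Ebf1 were below the array median on all arrays. Of 11 natural killer and innate lymphoid markers, Rora rose in both genotypes (1.79 ± 0.15 in IkL/L, 1.08 ± 0.15 in WT), the WT call being lost without either WT DMSO array (highest adjusted p = 0.0651). Zbtb16 was not called (-0.24 ± 0.20 in IkL/L, 0.11 ± 0.20 in WT). Il7r, also on the natural killer and innate lymphoid list, was not called either (0.12 ± 0.28 in IkL/L, -0.49 ± 0.28 in WT). None of the 3 gamma-delta markers measured (Sox13, Zbtb16 and Cd27) was called, Cd27 being at 0.18 ± 0.20 in IkL/L and 0.58 ± 0.20 in WT cells. The part of these markers in the Ccr9 result was not tested. In sorted bulk cells, a change in the share of Ccr9-positive cells and a change in RNA per cell cannot be told apart.

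Cxcr4 was the other member above the array median on every array. Its log2 levels on 1448710_at were 10.01 and 9.71 in IkL/L GSI, 9.40 and 9.54 in IkL/L DMSO, 9.34 and 9.93 in WT GSI and 9.09 and 10.13 in WT DMSO. The 2 WT DMSO arrays were the lowest and the highest of all 8. The GSI difference was 0.39 ± 0.34 in IkL/L cells (95% interval -0.40 to 1.17), where the groups did not overlap, and 0.03 ± 0.34 in WT cells (-0.76 to 0.81). Without 1 or the other WT DMSO array the WT value lay at -0.50 or 0.55, so its sign changed with single arrays.

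Ccr7 on 1423466_at had log2 levels of 5.72 and 4.40 in IkL/L GSI, 5.17 and 4.89 in IkL/L DMSO, 5.13 and 5.02 in WT GSI and 4.90 and 5.14 in WT DMSO. The first IkL/L GSI array, at 5.72, was the highest of the 8 and the only one above its array median; Cd8a (8.43) and Cd8b1 (7.62) were also highest there. The GSI differences of 0.03 ± 0.36 in IkL/L cells and 0.05 ± 0.36 in WT cells had intervals of -0.80 to 0.85 and -0.78 to 0.87. Ccr4, Ccr8, Cxcr5 and Cxcr6 lay below the array median on all 8 arrays. The table carries no detection calls, so it was not settled whether these 4 genes were expressed, and small differences there cover little.

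Ccr4 on 1421655_a_at had 3.91 and 3.61 in IkL/L GSI, 3.88 and 3.91 in IkL/L DMSO, 3.88 and 3.66 in WT GSI and 4.17 and 4.02 in WT DMSO. WT DMSO was its highest group and overlapped neither WT GSI nor IkL/L DMSO, with a GSI difference in WT cells of -0.32 ± 0.13 (95% interval -0.63 to -0.02). Ccr8 on 1422291_at had 3.68 and 3.65 in IkL/L GSI, 4.09 and 3.58 in IkL/L DMSO, 3.77 and 3.46 in WT GSI and 3.85 and 3.59 in WT DMSO, with all groups overlapping. Cxcr5 on 1422003_at ranged from 3.15 to 3.47 over the 8 arrays. Cxcr6 had 3.76 and 3.38 in IkL/L GSI, 3.45 and 3.54 in IkL/L DMSO, 3.71 and 3.67 in WT GSI and 3.32 and 3.58 in WT DMSO on 1425832_a_at, and ranged from 2.93 to 3.37 on its second probe set, 1422812_at.

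**Figure D2:**
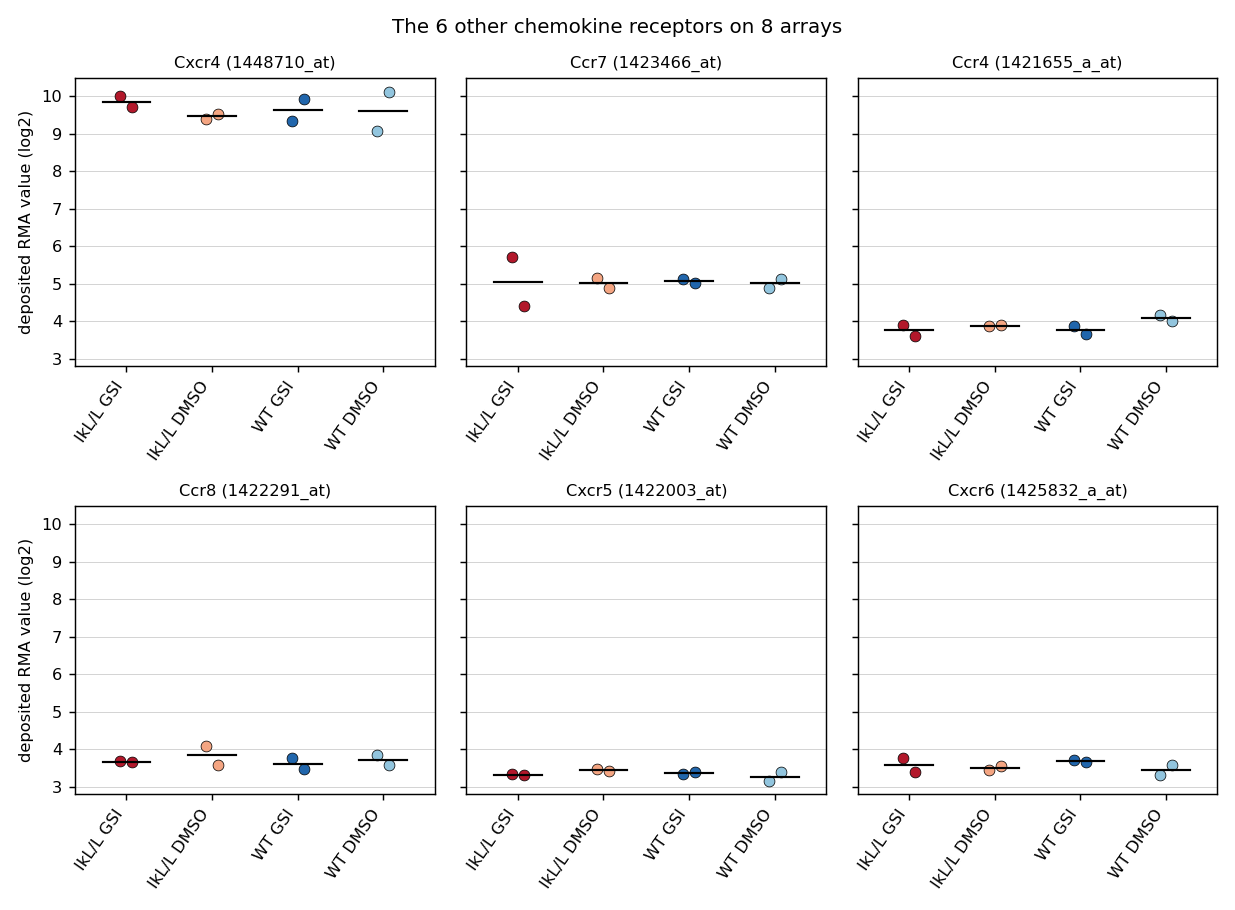
Deposited RMA values (log2, vertical axis) of the probe set used for each of the 6 other receptor genes, by group, with a point for each of the 2 arrays and a line at their mean. Cxcr4 lies between 9.09 and 10.13, Ccr7 between 4.40 and 5.72, and the other 4 genes below the array medians.

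Over these 6 genes the GSI difference ran from -0.17 to 0.39 in IkL/L cells, with 95% interval bounds between -0.80 and 1.17, and from -0.32 to 0.24 in WT cells (bounds -0.78 to 0.87). The genotype difference ran from -0.11 to 0.22 under GSI (bounds -0.84 to 1.01) and from -0.20 to 0.17 under DMSO (bounds -0.92 to 0.84). The difference of the GSI responses ran from -0.21 to 0.36 (bounds -1.19 to 1.47). For each of them, differences of the size seen for Ccr9 in IkL/L cells lay outside these bounds.

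Counted as calls of the fit over all genes (limma, Benjamini-Hochberg adjusted p below 0.05), 1 of the 7 members, Ccr9, was called in 4 of the 5 comparisons. It was called as higher with GSI in IkL/L cells, where 16.8% of all genes were called (7.70% higher, 9.09% lower), and in WT cells, where 6.47% were (2.31% higher, 4.16% lower). It was called as lower in IkL/L cells under DMSO, where 1.74% of genes were called (0.709% higher, 1.03% lower). For the difference of the responses the background was 0.0440%, or 8 genes. Under GSI 0 of 7 were called between the genotypes (1.46% of all genes; 0.945% higher, 0.517% lower). Because the members were chosen with these values known, nothing is read from these counts. Without the first WT DMSO array, Ccr9 was no longer called in WT cells (log2 difference 1.44). The call of the difference was lost without any 1 array of IkL/L GSI, IkL/L DMSO or WT DMSO, while its value stayed between 1.89 and 2.15 without each array in turn. Other processing choices that ended a Ccr9 call are given at the end.

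**Figure D3:**
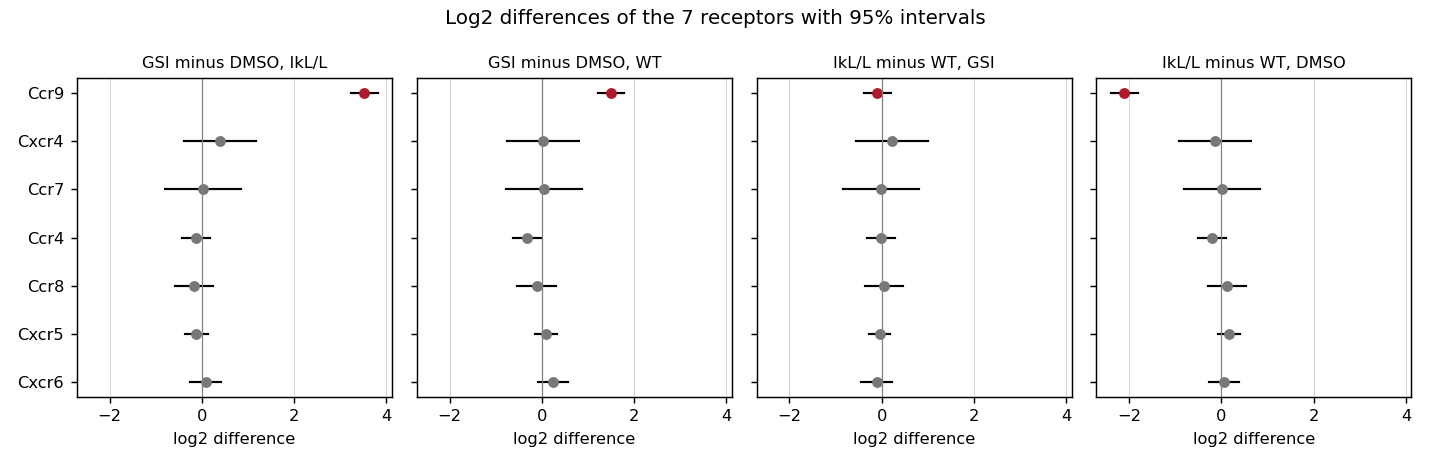
Log2 differences (horizontal axis) of the 7 receptor genes for GSI minus DMSO in IkL/L and in WT cells and for IkL/L minus WT under GSI and under DMSO, with points for the estimate and lines for the 95% interval of the limma fit. Ccr9 lies at 3.52, 1.50, -0.09 and -2.11, while the points of the other 6 genes lie between -0.32 and 0.39.

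The rest of the family was taken from a list of 18 further receptor genes, of which 16 were measured. None was called in any of the 5 comparisons (limma). At an unadjusted p below 0.05 there were 1 for GSI in IkL/L cells (29.8% of all genes) and 0 for GSI in WT cells (21.1%). Between genotypes there were 1 under GSI (10.7%) and 0 under DMSO (10.2%), and for the difference of the responses 1 (5.99%). Their median GSI difference was -0.08 in IkL/L cells and 0.06 in WT cells, beside -0.05 and 0.04 over all genes. With the GAPDH value as a covariate, Ackr3 was called in both genotypes and Ccrl2 in IkL/L cells, and with the stromal level Ccr10 was called in IkL/L cells. Of the 16, 13 lay below the array median on all arrays and only Ccr2, a receptor for CCL2 on monocytes and some lymphocytes, lay above it on all (6.51 to 6.97). Ccr6, which binds CCL20, had 5.80 and 5.29 in IkL/L GSI, 5.16 and 5.25 in IkL/L DMSO, 5.18 and 4.83 in WT GSI and 5.36 and 5.32 in WT DMSO. Its GSI difference was 0.34 ± 0.20 in IkL/L cells and -0.34 ± 0.20 in WT cells, and neither was called. Ackr3, a scavenging receptor for CXCL12, had 4.60 and 4.03 in IkL/L GSI, 4.34 and 3.86 in IkL/L DMSO, 5.16 and 3.64 in WT GSI and 4.40 and 3.54 in WT DMSO, higher on the first array of every group.

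Of 37 ligand genes 35 were measured. With GSI in IkL/L cells 4 rose (7.70% of all genes) and 1 fell (9.09%), and in WT cells 1 fell (4.16%). The median was 0.09 and 0.18. Ccl25, which encodes the ligand of CCR9, had log2 levels of 7.15 and 7.05 in IkL/L GSI, 6.03 and 6.39 in IkL/L DMSO, 6.24 and 6.27 in WT GSI and 6.61 and 6.38 in WT DMSO. It rose with GSI in IkL/L cells by 0.89 ± 0.18 (limma, adjusted p = 0.0135) and was at -0.24 ± 0.18 in WT cells. On its other probe set the differences were 0.11 in IkL/L and 0.12 in WT cells, so the rise rests on 1 probe set. Ccl27a, a ligand of CCR10, rose by 1.89 ± 0.23 in IkL/L cells (limma, adjusted p = 0.00198). Cxcl5 (1.18 ± 0.33), a neutrophil attractant, and Cxcl9 (0.58 ± 0.15), a ligand of CXCR3, also rose there. Mif, a cytokine that also binds CXCR4, fell by 2.05 ± 0.23 in IkL/L cells and by 1.51 ± 0.23 in WT cells (limma, adjusted p = 0.00146 and 0.0143). Cxcl5 was the ligand called between genotypes, higher in IkL/L under GSI by 1.85 ± 0.33 (limma, adjusted p = 0.0396). Cxcl12, the ligand of CXCR4 and one of the stroma markers, had 10.09 and 9.46 in IkL/L GSI, 9.97 and 8.62 in IkL/L DMSO, 10.48 and 8.24 in WT GSI and 9.30 and 8.83 in WT DMSO. The calls of Ccl25, Cxcl9 and both calls of Cxcl5 were lost without the first IkL/L GSI array, among others (highest adjusted p = 0.132, 0.162, 0.212 and 0.230), and that of Mif in WT cells without the first WT DMSO array (0.0843). The number of ligands that rose in IkL/L cells was between 1 and 4 in these fits.

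Of 31 genes that carry the receptors' signal, 5 rose with GSI in IkL/L cells (7.70% of all genes) and 2 rose in WT cells (2.31%). None fell (9.09% and 4.16% of all genes), and the medians were 0.37 and 0.24. Gnaq, a G protein alpha subunit, had 9.36 and 9.41 in IkL/L GSI, 8.17 and 8.06 in IkL/L DMSO, 8.40 and 8.70 in WT GSI and 7.95 and 8.10 in WT DMSO. It rose by 1.27 ± 0.19 in IkL/L cells (limma, adjusted p = 0.00337). Prex1, a Rac exchange factor activated by G protein beta-gamma subunits, rose by 1.15 ± 0.23 in IkL/L cells (limma, adjusted p = 0.0113). Dock2, a Rac activator that lymphocytes need to migrate (0.75 ± 0.19), and Rassf5, which links Rap1 to integrins (0.49 ± 0.12), rose there too; they were named after their values were seen, and neither was called without any 1 of the 4 IkL/L arrays (highest adjusted p = 0.236 and 0.171). Gng2, a G protein gamma subunit, rose by 1.17 ± 0.20 in WT cells (limma, adjusted p = 0.0174) and was at 0.44 ± 0.20 in IkL/L cells. Its other probe sets were at 0.91, 0.70 and 0.37 in WT cells and, in the same order, 0.72, 1.48 and 0.45 in IkL/L cells. Which genotype had the larger Gng2 response thus differed between probe sets. Stk4, the kinase MST1 that acts in thymocyte adhesion and exit, rose by 0.63 ± 0.14 in IkL/L and 0.60 ± 0.14 in WT cells (limma, adjusted p = 0.0161 and 0.0393), while 1 of its other 2 probe sets had the opposite sign in each genotype (-0.37 in IkL/L, -0.04 in WT). Without the second IkL/L GSI array the calls of Prex1 and Stk4 in IkL/L cells were lost (highest adjusted p over the fits without 1 array, 0.0817 and 0.137). Stk4 in WT cells was lost without any 1 of 7 arrays (0.196), and Gng2 without either WT DMSO array (0.0846). The number that rose in IkL/L cells was 1 without the second IkL/L GSI array or the first IkL/L DMSO array, and 7 at most. No gene of this list was called between genotypes.

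Of 14 genes that switch such receptors off, 3 rose and 1 fell with GSI in IkL/L cells (7.70% and 9.09% of all genes), and 1 rose in WT cells (2.31%). Rgs18, which speeds the turning off of G alpha subunits, had log2 levels of 6.21 and 7.08 in IkL/L GSI, 3.58 and 3.51 in IkL/L DMSO, 7.78 and 7.44 in WT GSI and 6.24 and 5.93 in WT DMSO. IkL/L DMSO was its lowest group, as for Ccr9, but IkL/L GSI stayed below WT GSI on both arrays. It rose by 3.09 ± 0.28 in IkL/L cells and by 1.53 ± 0.28 in WT cells, and differed by -2.54 ± 0.28 between IkL/L and WT cells under DMSO (limma, adjusted p = 0.00084, 0.0219 and 0.00449). On the other Rgs18 probe set these differences were 1.97, 1.73 and -1.36, with the same signs. The difference of the responses was 1.57 on the probe set used and 0.24 on the other. How much larger the Rgs18 response was in IkL/L cells thus depended on the probe set. Rgs2, of the same family, had 10.63 and 10.72 in IkL/L GSI, 9.12 and 9.14 in IkL/L DMSO, 11.72 and 10.93 in WT GSI and 10.60 and 10.36 in WT DMSO. It rose by 1.55 ± 0.25 in IkL/L cells and was lower in IkL/L under DMSO by -1.35 ± 0.25 (limma, adjusted p = 0.0047 and 0.0367). Grk3, a kinase that marks active receptors for arrestin, rose by 1.92 ± 0.32 in IkL/L cells, and Arrb2, an arrestin named after its value was seen, fell by 1.27 ± 0.28 but was not called without any 1 of the 4 IkL/L arrays. Rgs10 was higher in IkL/L than in WT cells under both GSI (1.16 ± 0.15) and DMSO (1.18 ± 0.15; limma, adjusted p = 0.00904 and 0.00859). The Rgs18 call in WT cells was lost without any 1 of 5 arrays (highest adjusted p = 0.102) and its genotype call without either IkL/L DMSO array (0.0584). The Rgs2 genotype call was lost without any 1 of 6 (0.267), the Grk3 call without the second IkL/L GSI or the first IkL/L DMSO array (0.0584), and the Rgs10 calls without either IkL/L array of the treatment compared (0.0865 under GSI, 0.119 under DMSO) and, under DMSO, without either WT DMSO array.

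Of 19 other homing and adhesion receptors, 4 rose and 1 fell with GSI in IkL/L cells (7.70% and 9.09% of all genes) and 1 rose in WT cells (2.31%). P2ry10, a lysophospholipid receptor, had 12.04 and 12.05 in IkL/L GSI, 10.27 and 10.61 in IkL/L DMSO, 12.06 and 12.04 in WT GSI and 11.42 and 11.55 in WT DMSO, the same order of groups as Ccr9. It rose by 1.61 ± 0.14 in IkL/L cells and was lower in IkL/L under DMSO by -1.05 ± 0.14 (limma, adjusted p = 0.000798 and 0.0124), the second call being lost without the first IkL/L DMSO array or either WT DMSO array (highest adjusted p = 0.102). Icam1, an integrin ligand, rose by 2.11 ± 0.24 in IkL/L and by 1.25 ± 0.24 in WT cells (limma, adjusted p = 0.00146 and 0.0252), the second call being lost without any 1 of 5 arrays (0.108). Itga6, an integrin subunit that binds laminin, rose by 0.95 ± 0.15 with GSI in IkL/L cells and was higher in IkL/L than in WT under GSI by 1.48 ± 0.15 (limma, adjusted p = 0.0047 and 0.00295). Itgae, which encodes the CD103 integrin of gut-homing T cells, was lower in IkL/L cells than in WT cells under GSI (-2.71 ± 0.19) and under DMSO (-2.84 ± 0.19; limma, adjusted p = 0.000498 and 0.000547). Its levels were 5.70 and 5.47 in IkL/L GSI, 5.15 and 4.98 in IkL/L DMSO, 8.18 and 8.41 in WT GSI and 8.02 and 7.77 in WT DMSO, so it kept its genotype difference with GSI, where that of Ccr9 was -0.09. Selplg (1.18 ± 0.24), Itgb2 (-1.36 ± 0.33) in IkL/L cells and Gpr183 (-2.85 ± 0.39 between genotypes under DMSO) were also called, and are named after their values were seen. The Gpr183 call ended when any of the 4 DMSO arrays was left out (0.108), and that of Selplg without the second IkL/L GSI or either IkL/L DMSO array (0.0937). Of the 3 genes of this list lower in IkL/L cells under DMSO (1.03% of all genes), 1 was left without the first IkL/L DMSO array or either WT DMSO array. The Itga6 call in IkL/L cells was lost without the second IkL/L DMSO array (0.0542). The number of these receptors that rose in IkL/L cells was 2 without the second IkL/L DMSO array and 7 without either WT GSI array, and the fall of Itgb2 was lost without 3 of the 4 IkL/L arrays.

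E proteins bind the E boxes searched above, and Id proteins block them. Of these 7 genes, Id3 fell with GSI in IkL/L cells by 1.34 ± 0.23 (limma, adjusted p = 0.00615). Its levels were 9.11 and 8.50 in IkL/L GSI, 10.29 and 10.00 in IkL/L DMSO, 10.05 and 9.90 in WT GSI and 9.85 and 9.93 in WT DMSO, so the IkL/L GSI arrays stood below the other 6. In WT cells the difference was 0.08 ± 0.23, and the difference of the responses was not called (-1.43 ± 0.32; limma, adjusted p = 0.439). Tcf12, an E protein gene, rose by 0.35 ± 0.10 in IkL/L cells (limma, adjusted p = 0.0466), with 2 of its 4 other probe sets of the opposite sign. Without the first IkL/L DMSO array Id3 was not called (adjusted p = 0.0688), and Tcf12 was not called without any 1 of 6 arrays (highest adjusted p = 0.225). The 17 interferon-stimulated genes measured averaged 9.35 and 8.56 in IkL/L GSI, 8.20 and 7.19 in IkL/L DMSO, 10.31 and 8.74 in WT GSI and 9.13 and 7.44 in WT DMSO, higher on the first array of each pair. Of these, Ddx58 was called in IkL/L cells with GSI (1.28 ± 0.37; limma, adjusted p = 0.0494) and was lost without any 1 of 4 arrays (0.232). Oasl2, with the largest difference of the list in IkL/L cells (2.74 ± 1.06), was not called there nor in WT cells (2.12 ± 1.06).

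Ccr9 lies on chromosome 9 among other chemokine receptor genes. Of the 6 measured genes on each side, 2 rose with GSI in IkL/L cells (7.70% of all genes) and 1 in WT cells (2.31%), none fell, and none was called between genotypes. They were the genes next to Ccr9. Lztfl1, which encodes a regulator of ciliary protein traffic, has its transcript start 49.6 kb away on 1 side. It had log2 levels of 10.81 and 10.90 in IkL/L GSI, 9.22 and 9.10 in IkL/L DMSO, 10.32 and 10.33 in WT GSI and 9.37 and 9.65 in WT DMSO. It rose by 1.70 ± 0.16 in IkL/L cells and by 0.81 ± 0.16 in WT cells (limma, adjusted p = 0.000906 and 0.0275), the second call being lost without any 1 of 7 arrays (highest adjusted p = 0.150). Fyco1, which links autophagosomes to microtubule motors, has its 3′ end 6.04 kb away on the other side and had 8.39 and 8.45 in IkL/L GSI, 6.54 and 6.99 in IkL/L DMSO, 8.18 and 8.78 in WT GSI and 7.20 and 7.69 in WT DMSO. It rose by 1.65 ± 0.28 in IkL/L cells (limma, adjusted p = 0.00577; lost without the second IkL/L GSI or the first IkL/L DMSO array, 0.0629) and was at 1.03 ± 0.28 in WT cells. Both had the lowest levels in IkL/L DMSO, but their IkL/L DMSO and WT DMSO values lay -0.35 ± 0.16 and -0.68 ± 0.28 apart, against -2.11 ± 0.13 for Ccr9. On the other probe sets this difference lay between -0.96 and -0.15 for Lztfl1 and was -0.53 for Fyco1. For Ccr9 it ran from -2.79 to -1.01 over its probe sets, so the size of the contrast depended on the probe set. Cxcr6, which lies within the span of Fyco1, and the receptor genes beyond Fyco1 (Xcr1, Ccr1, Ccr1l1 and Ccr3) lay below the array medians. Their GSI differences were between -0.19 and 0.08 in IkL/L cells and between -0.02 and 0.24 in WT cells.

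**Figure D4:**
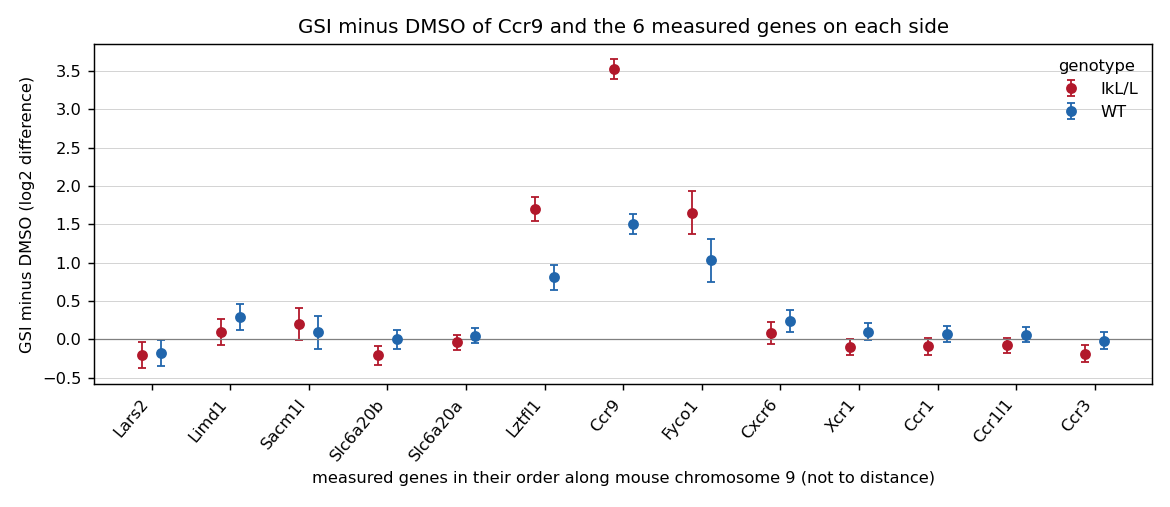
GSI minus DMSO (log2 difference, vertical axis) in IkL/L and WT cells for Ccr9 and the 6 measured genes on each side, in their order along chromosome 9 and not to distance; points are the estimates and bars the moderated SE. Lztfl1, Ccr9 and Fyco1 lie between 1.65 and 3.52 in IkL/L cells and between 0.81 and 1.50 in WT cells, and the other 10 genes lie near 0.

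Genes were ranked by the likeness of their levels to those of Ccr9 over the 8 arrays, among the 2806 genes whose group means spanned at least 1 on the log2 scale. This is a description without a test, since the arrays share their groups and the genes were picked for the pattern. The highest Pearson correlations were those of Atp8b4 (0.995), Lmo7 (0.994), Sgk3 (0.993), Lgals8 (0.991), Sstr2 (0.990), Ahcyl2 (0.990), Atxn1 (0.988) and Lpar6 (0.987). Atp8b4, which encodes a lipid-flipping ATPase, had 11.67 and 11.96 in IkL/L GSI, 8.61 and 8.77 in IkL/L DMSO, 11.90 and 11.91 in WT GSI and 10.65 and 10.65 in WT DMSO. Sstr2, a somatostatin receptor and thus also G protein-coupled, had 8.31 and 8.88 in IkL/L GSI, 5.54 and 5.42 in IkL/L DMSO, 8.79 and 8.96 in WT GSI and 7.28 and 7.55 in WT DMSO. Lpar6, a lysophosphatidic acid receptor, had 11.29 and 11.21 in IkL/L GSI, 9.01 and 9.24 in IkL/L DMSO, 11.45 and 11.67 in WT GSI and 10.14 and 10.37 in WT DMSO. All 8 had their lowest levels on the 2 IkL/L DMSO arrays and their next lowest on the 2 WT DMSO arrays. The lowest correlations were those of Haspin (-0.981), Homer1 (-0.974), Psmc3ip (-0.972) and Foxk2 (-0.972). Haspin, a mitotic histone kinase, had 7.61 and 7.56 in IkL/L GSI, 9.20 and 9.11 in IkL/L DMSO, 7.35 and 7.16 in WT GSI and 8.40 and 8.25 in WT DMSO.

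**Figure D5:**
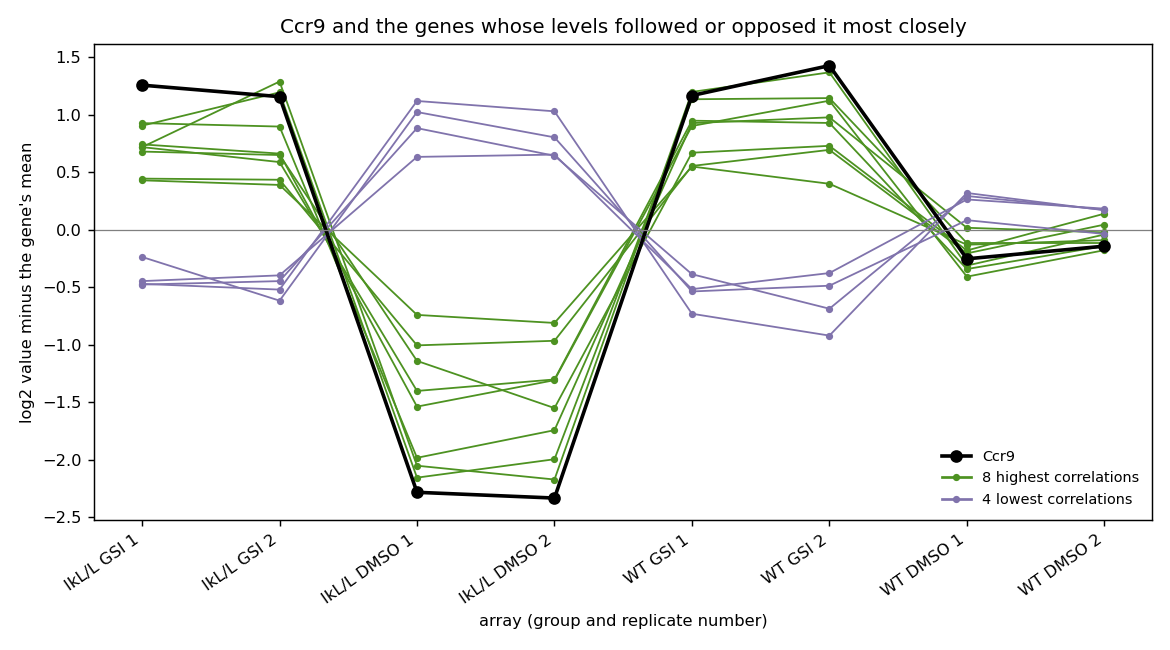
Log2 value of each gene minus its mean over the 8 arrays (vertical axis) on each array (horizontal axis), for Ccr9 and for the 8 genes with the highest and the 4 with the lowest correlation with it, which were chosen for this pattern. Ccr9 and the 8 genes like it are lowest on the 2 IkL/L DMSO arrays, where the 4 opposite genes are highest.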

How the data were processed

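The deposited table holds log2 expression values per probe set, which the authors made with RMA (background correction, quantile normalization and probe summary), per the submitters' processing notes. RNA was amplified by 2 labelling cycles, per the labels' protocols. The 64 control probe sets, 932 that name several genes and 9160 with no gene listed were left out. Each of 18193 genes was read from its probe set with the highest mean (9010 genes had several). All 8 arrays in 4 groups of 2 were fitted without covariates in limma 3.58.1 (R 4.3.3; lmFit, eBayes with a trend), with 4 residual degrees of freedom and 4.11 from the prior. All 5 contrasts were adjusted by Benjamini-Hochberg over all genes, with a threshold of 0.05, and intervals are 95%. Since no label says that replicates are separate animals, a p-value covers just the spread among these arrays. The members and the 14 gene lists were chosen with earlier results of these data known. Members were described without a test. Other genes were named by a written rule, the called genes of each list with the smallest adjusted p (filled to 2 per list by the largest difference), the called neighbours of Ccr9 and the genes most like it, and any exception is stated. Motifs were counted in RefSeq promoter windows (GRCm38.p6). 11 alternatives were listed and 3 added after seeing the data.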

Additional observations from a re-analysis of the deposited data

Results flagged for a closer look

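The GSI response of Ccr9 was larger in IkL/L cells (3.52) than in WT cells (1.50), a difference of 2.02 ± 0.18 on the log2 scale; as Ccr9 was chosen with these values known, no test is given. The same difference for Atp8b4, picked for its likeness to Ccr9 and so also given without a test, was 1.87 ± 0.21, with responses of 3.12 in IkL/L and 1.26 in WT cells. It was past the threshold over all genes with all 8 arrays and in 0 of the 8 fits without 1 array.

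In 3 of the other genes examined by name (Ccr6, Ccl25 and Pdgfrb), all arrays moved one way with GSI in IkL/L cells and the other way in WT cells, and in each the test of the difference did not pass. Of the probe sets that name 1 gene, 61.3% did not overlap for GSI in IkL/L cells and 41.9% in WT cells. The share with opposite directions was not counted, and nothing is read from these 3. Ccr6 had responses of 0.34 in IkL/L and -0.34 in WT cells, a difference of 0.68 ± 0.28 (limma, adjusted p = 0.812). Ccl25 had 0.89 in IkL/L and -0.24 in WT cells, a difference of 1.13 ± 0.26 (limma, adjusted p = 0.456), and on its other probe set the difference was -0.01. The stroma marker Pdgfrb had -0.49 in IkL/L and 0.32 in WT cells, a difference of -0.81 ± 0.28 (limma, adjusted p = 0.761). Ackr1, a receptor not examined by name in the results and below the array median on all arrays, also moved in opposite directions, with -0.10 in IkL/L and 0.16 in WT cells (difference -0.26 ± 0.19; limma, adjusted p = 0.895).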

How the results depend on the processing

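The Ccr9 differences with intervals that excluded 0 (both GSI responses, the genotype difference under DMSO and the difference of the responses) kept their direction under all alternatives run. Some alternatives could not change it. The replicate block, the fit without a trend, all probe sets as features and only the arrays compared leave these log2 differences unchanged by design. So do the limits to genes above the median level and to a difference of at least 1. With the mean over its probe sets, Ccr9 was at 3.79 (GSI in IkL/L), 1.87 (GSI in WT) and -1.97 (genotype under DMSO), and without _x_at and _s_at probe sets at 4.64, 2.10 and -2.79, with -0.25 between genotypes under GSI and 2.54 for the difference of the responses. The response in IkL/L cells was 3.58 after another quantile normalization and 3.35 with the GAPDH covariate. Without single arrays it ran from 3.47 to 3.57, the WT response from 1.37 to 1.62, the genotype difference from -2.16 to -2.06 under DMSO and from -0.22 to 0.04 under GSI, and the difference of responses from 1.89 to 2.15. The Ccr9 call for the difference of the responses was lost with the mean over its probe sets, without _x_at and _s_at probe sets and with all probe sets as features. It was also lost without a trend and without both WT arrays numbered 1. The Ccr9 call in WT cells was lost with only the arrays compared. Counts of called genes moved more than the Ccr9 differences. For GSI in IkL/L cells (3055) they were 1766 at a difference of at least 1 and 4979 with the stromal covariate, and 947 to 3860 without single arrays. For GSI in WT cells (1177) they were 1973 with a replicate block, 780 with all probe sets as features, 1 with only the arrays compared, 674 at a difference of at least 1, 543 when both WT arrays numbered 1 were left out, 2933 and 2276 with the stromal and GAPDH covariates, and 9 to 1341 without single arrays, 9 being the count without the first WT DMSO array. Between genotypes under GSI (266) they were 470 with the block, 154 above the median level, 101 with only the arrays compared, 844 and 794 with the stromal and GAPDH covariates, and 100 to 238 without single arrays. Under DMSO (316) they were 542 with the block, 207 with all probe sets, 801 and 1063 with the 2 covariates, and 76 to 425 without single arrays. For the difference of the responses (8) they were 24 with the block, 3 without _x_at and _s_at probe sets, 1 with all probe sets, 2 above the median level, 3 with array medians centred, 2 without a trend, 0 when both WT arrays numbered 1 were left out, 52 and 64 with these covariates, and 0 to 5 without single arrays. Of the other 16 receptors, the GAPDH covariate called 1 in WT and 2 in IkL/L cells and the stromal covariate 1 in IkL/L cells, and 0 were called without any single array. Igll1 between genotypes under GSI was at -0.12 without _x_at and _s_at probe sets, against 1.03. Of 64 called values of named genes, 20 were called under every alternative and 22 without each single array. The cause of these shifts was not tested. The labels do not say that replicate numbers pair the arrays. Same-numbered arrays correlated in their deviations with r from -0.113 to 0.710. With equal groups the block cannot move log2 differences, so the Ccr9 values (3.52 in IkL/L, 1.50 in WT) stayed the same by design. The block lost 0 of the 64 calls. The covariates and the fit without both WT arrays numbered 1 were chosen after seeing the data. With 2 arrays per group, precision is limited by their number, and for genes below the array median by signal near the background.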
